A study of Homo sapiens with 6 samples.

Results

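The genes described here carry the insulin and growth factor signal from the cell surface to the nucleus: the insulin receptor gene INSR, the receptor substrates IRS1 and IRS2, the phosphoinositide 3-kinase (PI3K) genes PIK3CD, PIK3R1 and PIK3IP1, the kinase gene AKT1, and the transcription factor genes FOXO3 and FOXO4. They were chosen by symbol, and all 9 were found among the 11911 genes of the table. RNA was sequenced from RS4;11, a cultured human acute lymphoblastic leukemia line of B-cell precursors with a KMT2A::AFF1 fusion. By the titles, 3 libraries came from RS4;11 with asparagine and 3 from RS4;11 without it, and RNA was taken 16 hours after withdrawal. The labels enter the same asparagine-free medium with 10% dialyzed serum for every sample, so they do not say what the libraries with asparagine received. Columns of the depleted group are named aspg and those of the other group unt, abbreviations that the labels do not explain. All samples are of 1 line. The labels do not tell whether the libraries of a group are separate cultures, and where they are not, the p-values reflect technical spread alone.

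In this pathway an activated receptor phosphorylates the IRS proteins, which dock PI3K. PI3K makes a membrane lipid that recruits AKT, and AKT phosphorylates the FOXO factors and keeps them out of the nucleus. When AKT activity is low, FOXO factors enter the nucleus and induce genes of cell cycle arrest, autophagy and stress defence, among them INSR and IRS2 in several cell types. In B-cell precursors the same axis runs below the pre-B receptor and the interleukin 7 receptor.

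Taking the step between values of a column as 1 read, libraries held 29971364 to 51127073 reads in the genes of the table, and the 9 genes had between 251 and 19557 reads in a library. Depleted library 1 stood apart. Over the genes tested, Pearson's r of its log2 values was 0.940 and 0.933 with depleted libraries 2 and 3, which had 0.996 between them. The difference followed GC content. In the lowest of 5 GC classes the median gene of depleted libraries 1, 2 and 3 differed by 0.03, 0.81 and 0.87 on the log2 scale from its mean with asparagine. In the class of highest GC the differences were -0.09, -0.85 and -0.89. The 9 genes are therefore also given without depleted library 1 and after a GC correction that removes this trend from each library. Of 10 B-cell precursor markers 9 were in the table, with sums of 3924 to 4227 CPM with asparagine and 2998 to 3998 in depleted libraries. VPREB1 and IGLL1, which form the surrogate light chain, fell (log2 fold changes -1.91 and -1.86, limma adjusted p = 0.00116 and 0.00477), as did CD79B, CD22 and DNTT, while PAX5 rose (0.41). All 6 markers of KMT2A-rearranged leukemia were in the table, of which CSPG4 fell (-2.92) and MEIS1, FLT3 and PROM1 rose (0.45, 0.84 and 0.95). The table held 0 of 6 T-cell, 0 of 5 erythroid, 1 of 6 myeloid and 2 of 5 stromal markers. The stromal pair, COL1A1 and PDGFRB, summed to 65.7 to 76.3 CPM with asparagine and 36.0 to 48.4 in depleted libraries, and the myeloid CSF1R was at 30.4 to 31.4 and 16.0 to 28.9. The part of these shifts in the results was not tested. Marker values are given without the GC correction, and their calls are from the fit to all 6 libraries.

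Promoter sequence from RefSeq (GRCh38.p14) was matched to all 9 genes, in 19 windows of 300 bases that run from 250 before to 50 after a transcript start. IRS1, IRS2 and INSR have 1 window each. The 250 bases before the start are shown for them because the receptor and 1 of its paired substrates rose while the other substrate did not pass. Capitals mark CCAAT on either strand, in reverse as ATTGG. INSR lies at chr19:7294415-7294664, IRS2 at chr13:109786584-109786833 and IRS1 at chr2:226799821-226800070, all on the minus strand.
INSR: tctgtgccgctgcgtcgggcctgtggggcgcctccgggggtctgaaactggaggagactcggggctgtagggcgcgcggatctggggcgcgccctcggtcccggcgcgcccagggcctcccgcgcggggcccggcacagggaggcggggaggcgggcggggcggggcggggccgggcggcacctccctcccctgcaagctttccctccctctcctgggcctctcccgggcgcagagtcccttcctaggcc
IRS2: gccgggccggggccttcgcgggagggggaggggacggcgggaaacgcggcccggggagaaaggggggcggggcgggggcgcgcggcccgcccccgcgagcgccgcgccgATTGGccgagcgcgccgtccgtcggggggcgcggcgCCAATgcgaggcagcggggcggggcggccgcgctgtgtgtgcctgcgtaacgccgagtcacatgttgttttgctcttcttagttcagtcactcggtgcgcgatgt
IRS1: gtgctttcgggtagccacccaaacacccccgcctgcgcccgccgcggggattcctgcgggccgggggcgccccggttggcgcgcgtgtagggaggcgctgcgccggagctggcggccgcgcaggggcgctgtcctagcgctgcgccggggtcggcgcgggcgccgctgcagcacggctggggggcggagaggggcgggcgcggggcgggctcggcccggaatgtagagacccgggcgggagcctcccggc
IRS2 held 2 CCAAT matches, INSR and IRS1 none. CCAAT was present in 34.6% of all 35116 such windows. GC content of the whole window was 78.3% for INSR, 75.7% for IRS2 and 79.3% for IRS1.

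The FOXO recognition core GTAAACA was searched on both strands, because INSR and IRS2 are known FOXO targets. It was absent from the windows of INSR and IRS2 and present in those of FOXO4 and PIK3IP1, 2 of the 19 windows, against 3.42% of all windows. The shorter GTAAAC gave the same 2 windows, against 7.20% of all. Each match lay just after the start, shown here with 10 bases on each side and the match in capitals (in reverse as TGTTTAC). FOXO4 is at chrX:71095864-71095890 on the plus strand and PIK3IP1 at chr22:31292456-31292482 on the minus strand.
FOXO4: ccggcgagtgGTAAACAgagacgtcag
PIK3IP1: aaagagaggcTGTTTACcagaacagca
PIK3IP1 has a second annotated start, whose window (chr22:31292485-31292784) overlaps the first and held no match. That window ends just short of the same match, which lies further into the gene. The E-box CANNTG, which both strands share, was found in 11 of the 19 windows and in 68.7% of all. A match is a description of these letters and not a measured binding site. Other forms of the FOXO site were not searched, so absence of the core does not mean that a window holds no FOXO site.

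The comparison of the groups asks how these genes differ after asparagine is removed. INSR and IRS2 rose, by 1.55-fold and 1.43-fold in mean CPM. PIK3CD and AKT1 fell 2.29-fold and 2.34-fold. The other 5, IRS1, PIK3R1, PIK3IP1, FOXO3 and FOXO4, did not pass the test (limma on log2(CPM + 1), Benjamini-Hochberg adjusted p under 0.05 over 11892 genes). Thus 4 of 9 were called, 2 in each direction, where 51.3% of all genes tested were called, 25.1% higher and 26.2% lower. The median log2 fold change was 0.27 over the 9 genes and 0.01 over all genes tested. Every depleted library lay above every library with asparagine for 3 of the 9 (30.2% of all genes) and below for 2 (30.8% of all genes). After the GC correction 4 of the 9 were higher and 2 lower, against 35.2% and 34.3% of genes. Without depleted library 1 it was again 4 and 2, against 40.0% and 41.6%. The 4 higher genes were not the same: INSR and IRS2 were called both times, FOXO4 and PIK3IP1 after the correction, and FOXO3 and PIK3R1 without depleted library 1. The columns summed to 1018766 to 1031234 CPM with asparagine and to 918783 to 952458 in depleted libraries, and the total RNA of a cell was not measured.

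**Figure D1:**
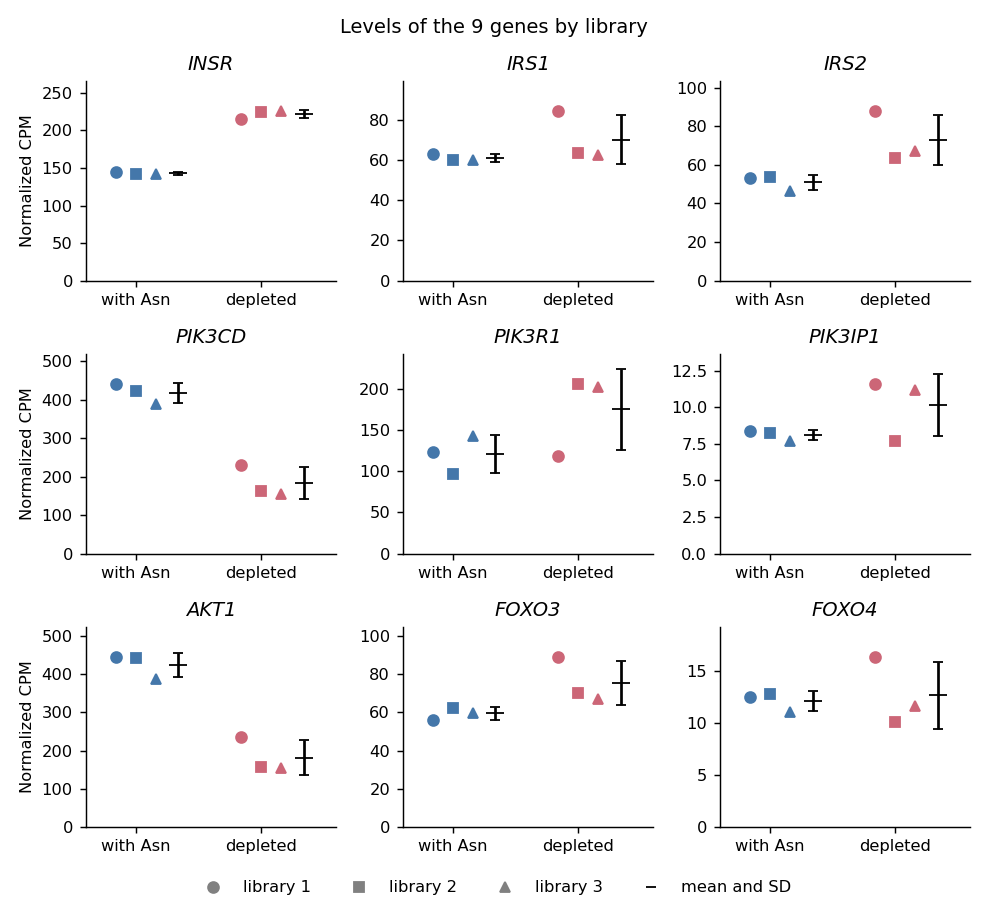
Normalized CPM of the 9 genes in each library, on linear axes that start at 0. Points are libraries, marked by number, in blue with asparagine and in red for depleted cells, and bars give the mean and SD of 3 libraries. INSR is above and AKT1 and PIK3CD are below their levels with asparagine in all 3 depleted libraries, while PIK3R1 of depleted library 1 sits among the libraries with asparagine.

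INSR encodes the insulin receptor, a tyrosine kinase (chromosome 19, 7112255 to 7294034, GRCh38 in GENCODE 29). Its level was 145, 142 and 142 CPM in libraries 1, 2 and 3 with asparagine, and 216, 224 and 225 CPM in depleted libraries 1, 2 and 3. The groups did not overlap, and the spread within each was small, with means of 143 ± 1.75 and 222 ± 5.36 CPM (SD, n = 3). The log2 fold change was 0.63 (SE 0.10, 95% interval 0.39 to 0.87, limma adjusted p = 0.00309). It was 0.58 after the GC correction and 0.65 without depleted library 1. INSR passed the test under each of the 20 alternative settings, with limma adjusted p from 1.81e-06 to 0.0253.

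IRS1 and IRS2 encode the main docking proteins of the insulin and insulin-like growth factor receptors. IRS2 (chromosome 13, 109752698 to 109786568) stood at 53.2, 53.5 and 46.6 CPM with asparagine and at 87.8, 63.6 and 67.2 CPM in depleted libraries 1, 2 and 3. All depleted values were above all others, and depleted library 1 was the highest. The log2 fold change of IRS2 was 0.49 (SE 0.16, limma adjusted p = 0.0385). Leaving out library 1, 2 or 3 with asparagine, or depleted library 2 or 3, ended the call, with limma adjusted p from 0.0557 to 0.134, while without depleted library 1 it was 0.00426. After the GC correction the IRS2 change was 0.95 (adjusted p = 3.11e-05), and the depleted libraries then lay at 0.83, 0.96 and 1.08 above the mean with asparagine on the log2 scale. Its transcript has a GC content of 58.7%, a range in which the median gene was lower in depleted libraries 2 and 3. An antisense gene shares 1.41% of the exon bases of IRS2, and without a stated strand setting their reads cannot be told apart.

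IRS1 (chromosome 2, 226731317 to 226799759) had 63.3, 60.0 and 60.3 CPM with asparagine and 84.3, 63.7 and 62.8 CPM in depleted libraries. Depleted library 3 lay within the range with asparagine and depleted library 2 just above it, and depleted library 1 was the highest. IRS1 had a log2 fold change of 0.18 (95% interval -0.17 to 0.54, limma adjusted p = 0.329), or 0.048 without depleted library 1. The log2 ratio of IRS2 over IRS1 was -0.25, -0.16 and -0.36 with asparagine and 0.057, -0.0027 and 0.097 in depleted libraries. The ratio shifted by 0.31 with no overlap (exact two-sided permutation test over libraries, p = 0.1, the smallest that 3 against 3 can give). The shift was 0.73 after the GC correction.

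PIK3CD encodes p110 delta, the catalytic subunit of PI3K that is enriched in white blood cells (chromosome 1, 9651732 to 9729114). It measured 440.2, 423 and 389.7 CPM with asparagine and 231, 163 and 155 CPM in depleted libraries 1, 2 and 3. The groups were far apart, and depleted library 1 was the least low. The log2 fold change was -1.21 (SE 0.17, 95% interval -1.62 to -0.80, limma adjusted p = 0.00205). It was -0.78 after the GC correction, which brought the 3 depleted libraries to -0.80, -0.75 and -0.79. PIK3CD passed under all 20 alternative settings. The gene CLSTN1 on the other strand overlaps 1.41% of its exon bases.

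PIK3R1 encodes p85 alpha, the regulatory subunit that holds and stabilizes the catalytic subunits (chromosome 5, 68215720 to 68301821). Its level was 124, 96.8 and 142 CPM with asparagine and 119, 206 and 202 CPM in depleted libraries. Depleted library 1 lay inside the range with asparagine, and depleted libraries 2 and 3 lay above it. PIK3R1 did not pass over all libraries (log2 fold change 0.51, limma adjusted p = 0.130), and without depleted library 1 it did (0.77, adjusted p = 0.000347). The transcripts of PIK3R1 have the lowest GC content of the 9, at 39.5%. Depleted libraries 1, 2 and 3 lay at -0.0071, 0.78 and 0.76 on the log2 scale from the mean with asparagine for PIK3R1, beside medians of 0.03, 0.81 and 0.87 for all genes of its GC class. With the GC correction the change was -0.056 (limma adjusted p = 0.498). The log2 ratio of PIK3R1 over PIK3CD rose by 1.72 on average, from -1.80 ± 0.34 to -0.077 ± 0.76 (SD, n = 3), with no overlap (exact permutation p = 0.1), and by 0.73 after the GC correction.

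PIK3IP1 encodes a transmembrane protein that binds and inhibits the catalytic subunit (chromosome 22, 31281593 to 31292534). It was the lowest of the 9 in CPM, at 8.41, 8.24 and 7.73 with asparagine and 11.6, 7.69 and 11.2 in depleted libraries 1, 2 and 3, on 251 to 493 reads. Depleted library 2 was the lowest value of all, so the groups overlapped. The log2 fold change of PIK3IP1 was 0.27 (95% interval -0.15 to 0.69, limma adjusted p = 0.230). Corrected for GC it was 0.62 and passed (limma adjusted p = 0.00639), with the depleted libraries at 0.50, 0.43 and 0.94.

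AKT1 encodes the central serine-threonine kinase of the pathway (chromosome 14, 104769349 to 104795751). It stood at 445, 442 and 388 CPM with asparagine and at 235, 155 and 154 CPM in depleted libraries 1, 2 and 3. No depleted library came near the lowest library with asparagine. AKT1 had the lowest log2 fold change of the 9, close to that of PIK3CD, at -1.25 (SE 0.19, 95% interval -1.69 to -0.81, limma adjusted p = 0.00241). The GC correction reduced it to -0.76, with depleted libraries at -0.79, -0.76 and -0.74, and it passed under all 20 alternative settings. AKT1 and PIK3CD have similar GC contents (59.3% and 57.9%), and their depleted libraries followed the same order. An antisense gene shares 5.94% of the exon bases of AKT1.

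FOXO3 and FOXO4 encode forkhead transcription factors that AKT phosphorylates. FOXO3 (chromosome 6, 108559835 to 108684774) had 56.1, 62.5 and 59.9 CPM with asparagine and 89.0, 70.4 and 67.1 CPM in depleted libraries. All depleted values were higher, depleted library 1 by the most. The FOXO3 log2 fold change was 0.33 (95% interval -0.018 to 0.68, limma adjusted p = 0.0984). The correction for GC gave 0.27 (limma adjusted p = 0.0652). Without depleted library 1 it was smaller, 0.21, and passed (adjusted p = 0.0387). A processed copy, FOXO3B, is in the table at means of 8.87 and 8.57 CPM, so reads of the shared sequence are uncertain.

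FOXO4 (chromosome X, 71096197 to 71103535) had 12.5, 12.8 and 11.0 CPM with asparagine and 16.3, 10.1 and 11.6 CPM in depleted libraries 1, 2 and 3. Depleted library 1 was the highest and depleted library 2 the lowest of all. FOXO4 had a log2 fold change of 0.035 (95% interval -0.42 to 0.49, limma adjusted p = 0.887), which was -0.15 without depleted library 1. Corrected for GC it was 0.45 and passed (limma adjusted p = 0.00311), with depleted libraries at 0.45, 0.34 and 0.56. The log2 ratio of FOXO4 over FOXO3 differed by -0.29 (exact permutation p = 0.1), and by 0.18 after the GC correction (exact permutation p = 0.4), so its direction depended on that choice.

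**Figure D2:**
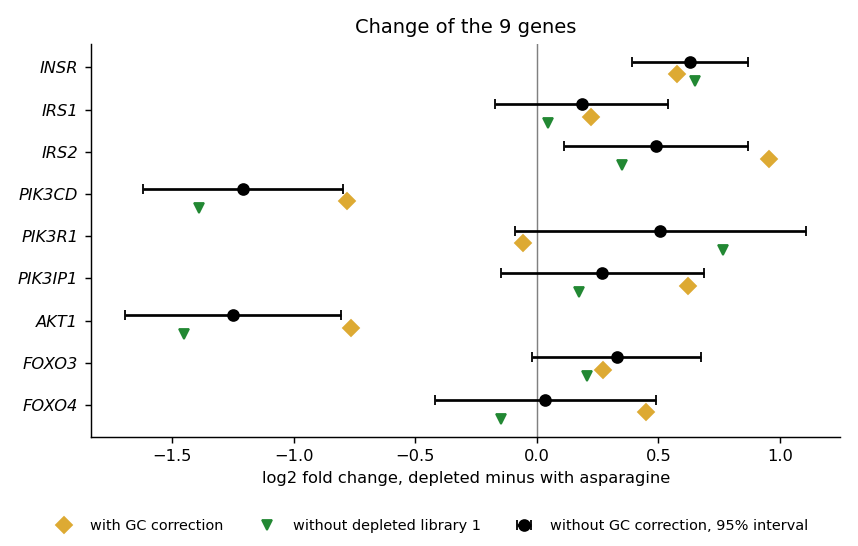
Log2 fold change of each of the 9 genes, depleted minus with asparagine, where circles are the fit to all 6 libraries with 95% intervals. Diamonds are the values after the GC correction and triangles those without depleted library 1. All 3 values are below 0 for AKT1 and PIK3CD and above 0 for INSR, IRS2, IRS1, PIK3IP1 and FOXO3. Those of PIK3R1 and FOXO4 fall on both sides.

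**Figure D3:**
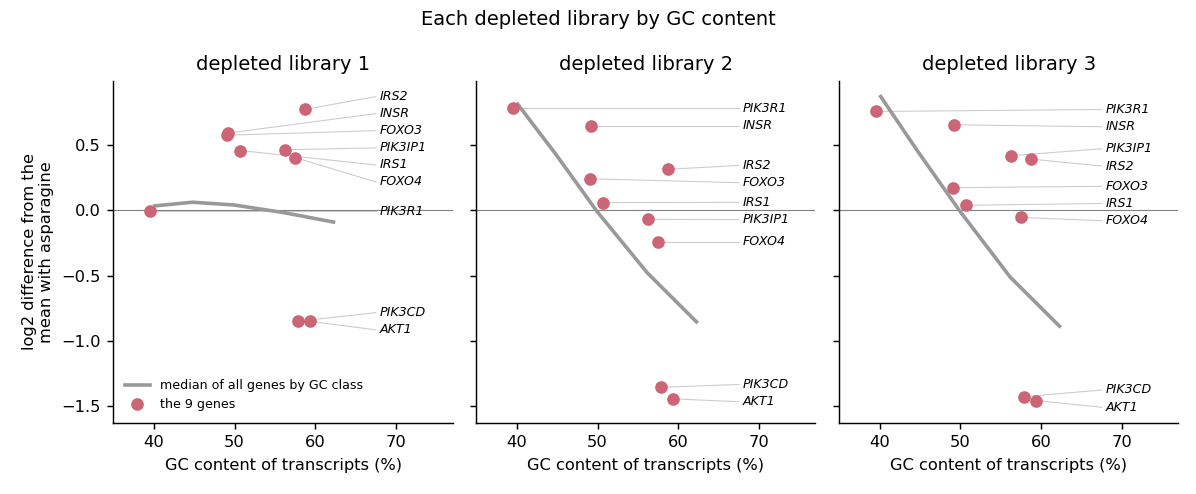
Log2 difference of each of the 9 genes from its mean with asparagine, against the GC content of its transcripts in percent, in each depleted library. The grey line joins the medians of all tested genes in 5 GC classes: it is nearly flat in depleted library 1 and falls from 0.81 to -0.85 in library 2 and from 0.87 to -0.89 in library 3.

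Set against the grey line of GC medians, INSR and IRS2 lay above it in all 3 depleted libraries and AKT1 and PIK3CD below it. FOXO3 and IRS1 were above it too, most in depleted library 1, at 0.53, 0.18 and 0.10 for FOXO3 and 0.43, 0.13 and 0.11 for IRS1 once corrected for GC. FOXO4 and PIK3IP1 were also above it in each, at levels close to or above those with asparagine although the median gene of their class was lower in depleted libraries 2 and 3. PIK3R1 lay near it, at -0.02, -0.04 and -0.11 on the log2 scale once corrected for GC.

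Like AKT1, its paralog AKT2 fell, by 1.49-fold from 325 ± 20.5 to 219 ± 64.0 CPM (SD, n = 3; limma adjusted p = 0.0427). The AKT2 values were 337, 337 and 302 CPM with asparagine and 293, 181 and 182 CPM in depleted libraries 1, 2 and 3. The groups did not overlap, and depleted library 1 was close to the lowest library with asparagine. With the GC correction AKT2 had a log2 fold change of -0.10 and did not pass (limma adjusted p = 0.0703), nor did it with quantile normalization (-0.46, 0.0999). AKT2 also lost its call when any 1 library other than depleted library 1 was left out (limma adjusted p from 0.0819 to 0.141), whereas AKT1 was lower under each of the 20 alternative settings.

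Among class I catalytic subunits, PIK3CA, the p110 alpha gene, rose 2.63-fold from 41.5 ± 8.79 to 109 ± 52.7 CPM (limma adjusted p = 0.0432), with depleted library 1 at 48.5 CPM, below library 3 with asparagine at 49.3. Its log2 fold change was 1.25, and 0.66 when corrected for GC, where it passed. The call ended when any 1 library other than depleted library 1 was left out (limma adjusted p from 0.0717 to 0.137). PIK3CG (219 ± 11.7 and 299.7 ± 63.1 CPM) and PIK3CB (24.98 ± 1.82 and 29.8 ± 10.6 CPM) did not pass, and both passed as higher without depleted library 1. PIK3CG also passed with quantile normalization (limma adjusted p = 0.0349), and PIK3CB passed as lower when corrected for GC (log2 fold change -0.35, limma adjusted p = 0.0255). Per kilobase, PIK3CD was on average 59.7% of the 4 genes with asparagine and 31.4% in depleted cells, and PIK3CG, the p110 gamma gene, 33.5% and 52.9%. In depleted libraries 1, 2 and 3 these shares were 44.39, 25.78 and 23.88% for PIK3CD and 46.66, 55.35 and 56.81% for PIK3CG. The shares were not corrected for GC. The regulatory subunit genes PIK3R2 and PIK3R3 fell 1.97-fold and 2.45-fold, to 26.2 ± 10.8 and 4.02 ± 1.39 CPM (limma adjusted p = 0.0216 and 0.00452). PIK3R3 was lower under each of the 20 alternative settings, and PIK3R2 did not pass without library 1 or 2 with asparagine or depleted library 2 or 3 (0.0669 to 0.0847). The log2 fold change of PIK3R2 was -1.01, and -0.28 when corrected for GC. Of the other FOXO genes, FOXO1 rose 1.56-fold from 37.1 ± 0.653 to 57.8 ± 11.4 CPM (limma adjusted p = 0.0241). It did not pass with any 1 library other than depleted library 1 left out (limma adjusted p from 0.0782 to 0.0891). Its log2 fold change was 0.61, and 0.41 when corrected for GC. Per kilobase FOXO1 was on average 28.85% of the 4 FOXO genes with asparagine and 35.92% in depleted cells, and FOXO3 37.36% and 37.18%. In depleted libraries 2 and 3 the share of FOXO1 was above that of FOXO3. FOXO6 had 8.31 ± 1.08 and 8.36 ± 4.001 CPM, passed as higher when corrected for GC (log2 fold change 1.00) and as lower without depleted library 1 (-0.39). The receptor gene IGF1R had 153 ± 3.32 and 174 ± 15.2 CPM and did not pass (limma adjusted p = 0.211), though it did without depleted library 1 (0.00412).

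**Figure D4:**
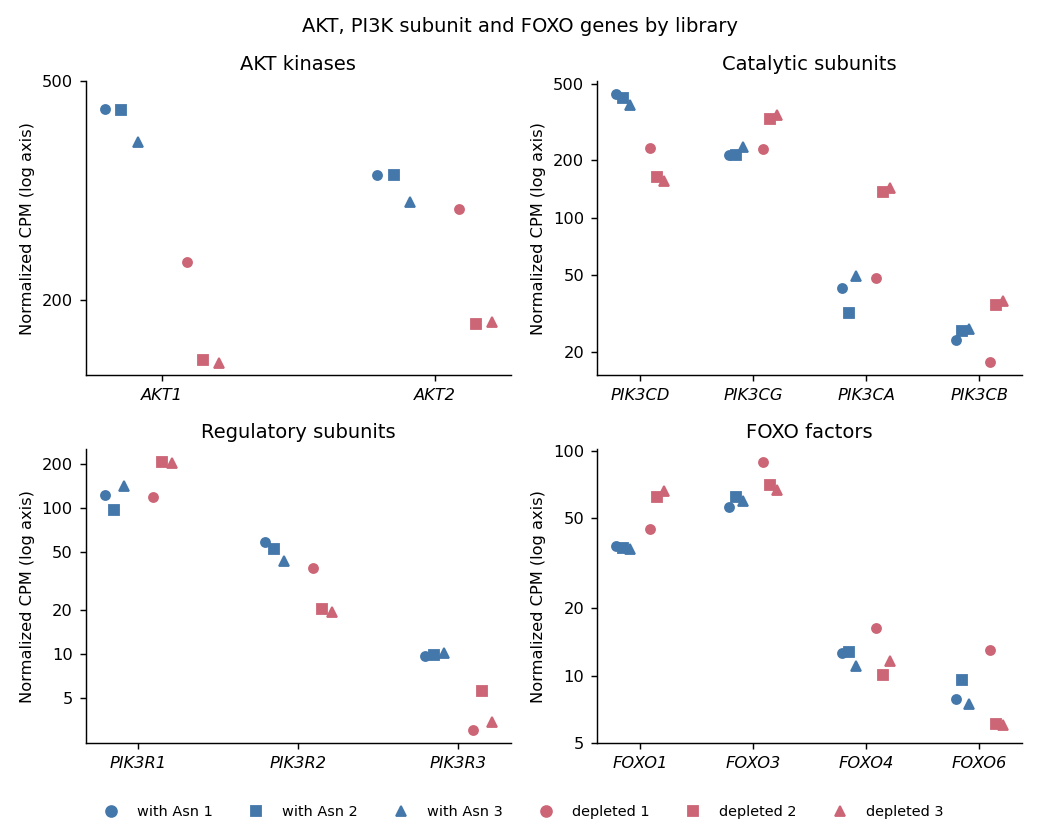
Normalized CPM (log axis) of AKT kinase, PI3K catalytic and regulatory subunit and FOXO genes in each library, in blue with asparagine and in red for depleted cells. AKT1 and PIK3CD are lower and FOXO1 higher in all 3 depleted libraries, while PIK3CA lies above all libraries with asparagine in depleted libraries 2 and 3 and not in 1.

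Lists of the other genes of the pathway were read from the same fit, and the calls named for them hold with each library left out unless stated. Counts of every list stand beside 25.1% higher and 26.2% lower over all genes tested, or 35.2% and 34.3% when corrected for GC. Of 15 receptors and adaptors tested, 6 were higher and 4 lower, with a median log2 fold change of 0.18 (7 and 5 when corrected for GC). SH2B3, an adaptor that restrains cytokine signals, rose 2.85-fold to 186 ± 13.3 CPM and GAB2, a docking protein that binds p85, 2.84-fold to 525 ± 73.9. GAB1 rose 1.97-fold, and SH2B2 and SH2B1, adaptors that bind the insulin receptor, fell 2.62-fold and 1.91-fold. GAB1 did not pass when any 1 library other than depleted library 1 was left out (limma adjusted p from 0.0636 to 0.127), nor SH2B1 without library 1 or 2 with asparagine or depleted library 2 (0.0537 to 0.0554). With the GC correction the log2 fold changes went from 0.92 to 0.53 for GAB1, from -1.39 to -0.44 for SH2B2 and from -0.98 to -0.34 for SH2B1, all past the test. Of 14 PI3K subunits and inhibitors 1 was higher and 4 lower (median 0.17; 2 and 6 when corrected for GC): PIK3CA, and PIK3CD, PIK3R2, PIK3R3 and the class II kinase gene PIK3C2B. PIK3C2B fell 1.45-fold, but with the GC correction its log2 fold change was -0.062 and did not pass, nor did it when any 1 library other than depleted library 1 was left out (limma adjusted p from 0.0533 to 0.0904).

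Phosphatases that oppose PI3K or AKT were higher in 3 and lower in 2 of 9, with a median log2 fold change of -0.073 (5 and 1 when corrected for GC, median 0.23). SYNJ1, a synaptojanin, rose 3.65-fold to 35.5 ± 11.99 CPM, and SYNJ2 1.52-fold. PHLPP2, a phosphatase that acts on AKT itself, rose 1.47-fold to 25.6 ± 4.93 CPM (limma adjusted p = 0.0476). Its call ended with median ratio rescaling (0.0509), quantile normalization (0.0802) or the replicate block (0.0671), and when any 1 library other than depleted library 1 was left out (limma adjusted p from 0.0866 to 0.159). When corrected for GC it had a log2 fold change of 0.23 in place of 0.51. INPP5D, the SHIP1 gene of blood cells, fell 1.67-fold to 179 ± 21.3 (log2 fold change -0.74, and -0.38 when corrected for GC), and INPP5K, another lipid phosphatase gene, 1.47-fold. INPP5K did not pass when corrected for GC (limma adjusted p = 0.0560) or with any 1 library other than depleted library 1 left out (0.0512 to 0.107).

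AKT kinases, mTORC2 subunits and AKT regulators were mostly lower, in 9 of 13, while the other 4 did not pass, with a median log2 fold change of -0.61. Over all genes 26.2% were lower. The counts were 9 lower and 1 higher after the GC correction, median -0.42, against 34.3% of genes lower, and 9 and 3 without depleted library 1, against 41.6%. PRR5, a subunit of mTORC2, the complex that phosphorylates AKT, fell 3.88-fold to 8.03 ± 3.83 CPM, MLST8, another subunit, 2.02-fold, MAPKAP1, also of mTORC2, 1.53-fold, and PPP2R1A, the scaffold of protein phosphatase 2A, 1.99-fold. TCL1A, an AKT co-activator of B cells, fell 1.69-fold from 310.1 ± 17.3 to 183 ± 36.6. All 5 also passed when corrected for GC, where the log2 fold changes went from -1.90 to -1.13 for PRR5, from -1.04 to -0.38 for MLST8, from -1.01 to -0.66 for PPP2R1A, from -0.77 to -0.42 for TCL1A and from -0.61 to -0.59 for MAPKAP1. RICTOR, also of mTORC2, did not fall with them and did not pass (log2 fold change 0.55, limma adjusted p = 0.375). It passed as higher without depleted library 1 (1.15, limma adjusted p = 0.000230) and was at -0.074 when corrected for GC.

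AKT substrates were higher in 5 and lower in 2 of 14 (median 0.18; 8 and 2 when corrected for GC). MDM2, the p53 ligase gene, rose 1.97-fold and GSK3B, a kinase of glycogen synthesis and beta-catenin turnover, 1.90-fold, while AKT1S1, an mTORC1 inhibitor, fell 1.72-fold and TBC1D4, of glucose transporter traffic, 1.61-fold. AKT1S1 did not pass when corrected for GC (limma adjusted p = 0.110), and the log2 fold change of MDM2 went from 0.92 to 0.43. These 4 calls were lost in some fits without 1 library, with limma adjusted p up to 0.109 for MDM2 (any library but depleted library 1), 0.0635 for GSK3B and 0.0865 for AKT1S1 (library 1 or 2 with asparagine, depleted library 2 or 3), and 0.0612 for TBC1D4 (library 1 or 3 with asparagine). Of 17 FOXO regulators 6 were higher and 5 lower (median 0.29; 8 and 7 when corrected for GC, median 0.0091). SGK1, a kinase that phosphorylates FOXO factors at sites shared with AKT, rose 5.35-fold from 4.25 ± 0.517 to 22.7 ± 3.83 CPM (limma adjusted p = 0.000286). The acetyltransferase genes EP300 and CREBBP rose 2.17-fold and 1.80-fold and the deacetylase gene SIRT1 2.28-fold. The log2 fold change of SIRT1, whose transcripts have 36.6% GC, was 1.14, and 0.44 when corrected for GC. SKP2, a ubiquitin ligase subunit, fell 2.40-fold to 41.3 ± 7.15.

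Of 32 known FOXO targets 14 were higher and 7 lower, with a median log2 fold change of 0.48. Of the 30 with a GC value 15 were higher and 12 lower after the GC correction, with a median of 0.20, against 35.2% and 34.3% of all genes. Without depleted library 1 it was 20 and 11 of 32, against 40.0% and 41.6%. INSR and IRS2 are counted in this list. KLF2, a zinc finger factor of lymphocyte quiescence, rose 9.34-fold from 1.44 ± 0.243 to 13.5 ± 5.36 CPM. MAP1LC3B, of autophagosomes, rose 5.58-fold to 268.5 ± 56.9, TXNIP, a brake on glucose uptake, 4.58-fold to 248 ± 23.6, and SESN3, a sestrin, 4.03-fold to 17.2 ± 8.28. SESN3 did not pass without library 1 or 2 with asparagine or depleted library 2 (limma adjusted p from 0.0505 to 0.0570). C10orf10, also known as DEPP1, fell 4.44-fold from 18.2 ± 0.391 to 4.11 ± 1.58 (limma adjusted p = 0.00115), and has no GC value. Several of these genes are also induced by other stress factors, and their values do not show which factor acted. Over all lists, with each gene once, 32 of 110 were higher and 33 lower, against the 25.1% and 26.2% of all genes.

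**Figure D5:**
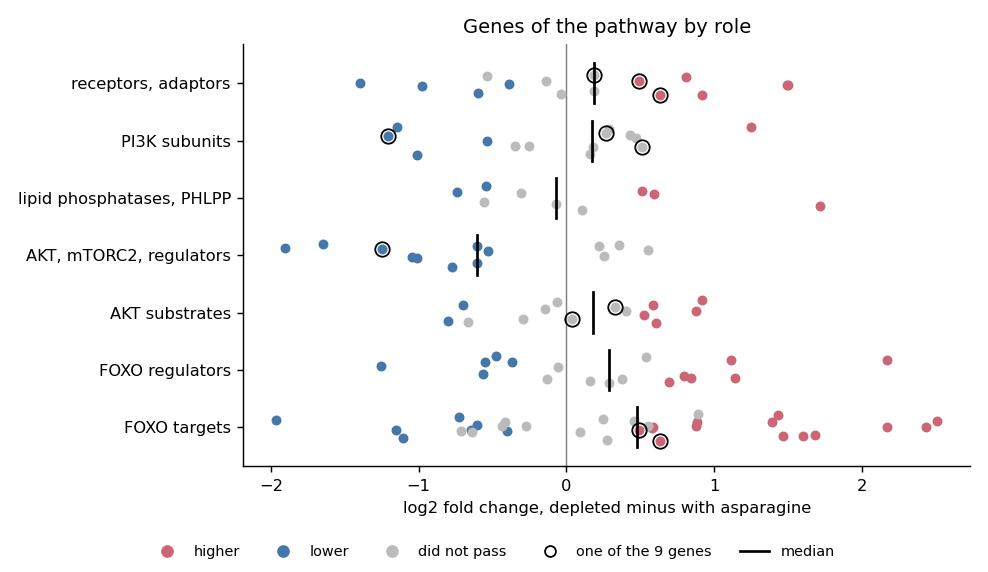
Log2 fold change of the tested genes of each list, 1 point per gene with random vertical jitter, coloured by whether it passed the test as higher or lower. Rings mark those of the 9 genes that a list holds, and vertical bars are medians, which run from -0.61 for the AKT list to 0.48 for the FOXO targets.

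Levels of different genes can be compared only per length, and here by the summed exon length in GENCODE 29. With asparagine PIK3CD was highest at 65.98 ± 4.06 CPM per kilobase (SD, n = 3), followed by AKT1 at 38.1 ± 2.88, INSR at 13.7 ± 0.168, PIK3R1 at 11.2 ± 2.13, FOXO3 at 7.71 ± 0.418, IRS2 at 6.28 ± 0.478, IRS1 at 6.15 ± 0.186, FOXO4 at 3.52 ± 0.275 and PIK3IP1 at 2.14 ± 0.0926. IRS1 and IRS2 did not differ beyond their spread. INSR was above PIK3R1 in each library with asparagine, by little more than the SD of PIK3R1, and below it by transcript length. In depleted cells PIK3CD stood at 28.9 ± 6.64, INSR at 21.2 ± 0.513, PIK3R1 at 16.3 ± 4.57 and AKT1 at 16.3 ± 4.16. INSR now exceeded AKT1 in mean on this scale, and in depleted libraries 2 and 3. In depleted library 1 AKT1 was still higher, at 21.1 against 20.6 for INSR. With the median transcript length in place of the exon sum, AKT1 was first with asparagine, at 156 ± 11.8, followed by PIK3CD at 80.3 ± 4.94, PIK3R1 at 76.97 ± 14.6 and INSR at 30.3 ± 0.371. In depleted cells PIK3R1 was then first in mean, at 112 ± 31.3, followed by AKT1 at 66.6 ± 17.02 and INSR at 47.0 ± 1.14. In depleted library 1 AKT1 was above PIK3R1 by this length, at 86.2 against 75.6. The order of these genes therefore depends on the length used and on the library. FOXO4 and PIK3IP1 were the lowest pair with asparagine by both lengths.

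Among 10543 other genes with a mean of at least 5 CPM, those most like INSR over the 6 libraries, by Pearson's r of log2 values, were OPTN, PIGC and KANSL1 (r of 0.9998, 0.9997 and 0.9995). For AKT1 they were ATAD3A, RALGDS and ABCB9 (r of 0.9999, 0.9999 and 0.9998). The points share libraries and fall into 2 groups, and 1834 genes had r above 0.9 with INSR and 2855 with AKT1.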

How the data were processed

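Total RNA of 6 RS4;11 samples was sequenced. FastQC, STAR, featureCounts (Subread) and the GRCh38 build are named per the submitters' processing notes. Not given in the sources used here are versions, annotation, strand setting, how CPM were scaled and how genes were filtered. The deposited values are normalized CPM, a depth-scaled signal that the authors made per gene and library. Each value was a whole multiple of 1 step per column (100% within 1e-06 of a read), and reads per library were computed by taking that step as 1 read. This was not checked against a count table, and no count model was run. A value of 3 reads is 0.0598 to 0.0920 CPM. Every gene reached at least 0.540 CPM in some library.

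Columns were matched to samples by group and replicate number. The 11892 genes that reached 1 CPM in 3 or more libraries were fitted with limma 3.58.1 in R 4.3.3 on log2(CPM + 1), with group as the only term, empirical Bayes moderation and an intensity trend. P-values are two-sided and adjusted over all genes by the Benjamini-Hochberg method at 0.05. Log2 fold changes are the model's and understate changes of low genes, while "-fold" values are ratios of mean CPM. GC content is the median over a gene's protein-coding transcripts in GENCODE 29, available for 95.2% of genes. The GC correction subtracted a lowess trend (span 0.3) per library and left 11325 genes. The script was tested on simulated data with independent noise in each library. Those data held no GC trend and no outlying library, so the test does not bear on either. Named genes are the 9, their paralogs, and up to 5 called genes from each list, those of greatest absolute log2 fold change that reach 5 CPM in the higher group. Promoter windows were searched over all 300 bases after a first look had shown that the FOXO core matches lie past the RefSeq start. The 9 genes and the lists, which are textbook knowledge, were chosen with earlier results of these data known. The lists leave out 2 genes that are not reported here.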

Additional observations from a re-analysis of the deposited data

How the results depend on the processing

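The 20 alternatives were other pseudocounts (0.25 and 4 CPM), no filter or 5 CPM, 3 rescalings, moderation without trend or robust, a replicate block, a threshold of 0.01, the GC correction alone, with the replicate block or (added after seeing the data) without depleted library 1, and each library left out. INSR, PIK3CD, AKT1 and PIK3R3 kept direction and call in all of them. At a threshold of 0.01, 1612 genes were higher (13.6%) and 1703 lower (14.3%), and of the 9, 1 was higher and 2 lower. Of the 9, 4 were higher with the GC correction (35.2% of all genes), 4 with it and the replicate block (32.7% of all genes), and 5 with it and without depleted library 1 (39.4% of all genes). Leaving out 1 library gave 1724 to 4728 higher and 1785 to 4908 lower genes, and 1 to 4 of the 9 higher. Counts moved by over 1.5 times when depleted library 1 was left out (4728 and 4908), or library 1 (1750 and 1813) or 2 (1724 and 1785) of the cells with asparagine, or depleted library 2 (1805 and 1945) or, for higher genes, 3 (1960).

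Same-numbered libraries did not deviate together in every pair (r of 0.083, -0.645 and 0.686 across genes for numbers 1, 2 and 3), and not every library correlated best with its own number. With the replicate block 2824 genes were higher (23.7%) and 2989 lower (25.1%). Of the 9, 2 were lower and 1 was higher, since IRS2 then had a limma adjusted p of 0.0528.

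Directions turned as follows. FOXO4 had a log2 fold change of -0.064 with quantile normalization, -0.026 without library 3 with asparagine and from -0.15 (depleted library 1) to 0.17 (depleted library 2) with 1 library left out. With the GC correction PIK3R1 was at -0.056 (the same with the replicate block) and -0.067 without depleted library 1, FOXO6 at 1.00 (1.00 with the replicate block) and 1.10, and PIK3CB at -0.35 (-0.35 with the replicate block) and -0.26. PIK3C2B was at 0.044 when GC was corrected in the 5 libraries other than depleted library 1. FOXO6 was at 0.028 without library 2 with asparagine and 0.097 and 0.10 without depleted libraries 2 and 3, and at -0.39 without depleted library 1. PIK3CB ranged from -0.00046 without depleted library 3 to 0.51 without depleted library 1. The log2 ratio of FOXO4 over FOXO3 was 0.18 with the GC correction and 0.30 with it and without depleted library 1. Causes were not tested beyond what each setting changes. The 9 genes rest on at least 251 reads per library, and both that depth and the 3 libraries per group limit precision.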
